A study of Mus musculus with 108 samples.

Results

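The axonal transport motors described here are 10 genes whose proteins drive cargo along microtubules: the kinesin heavy chains Kif5a, Kif5b, Kif5c, Kif1a, Kif1b, Kif3a, Kif3b and Kif3c, the kinesin light chain Klc1, and the dynein intermediate chain Dync1i1. They were chosen by symbol, and 36 probe sets of the array belonged to exactly 1 of them, out of 34958 probe sets of a sole gene that covered 18194 genes. All 10 motors passed the filter on low signal in both tissues. The study measured RNA on Affymetrix Mouse Genome 430 2.0 arrays in the optic nerve head (ONH), where the axons of retinal ganglion cells leave the eye, and in the retina of DBA/2J mice, a strain that develops inherited glaucoma with age. At 10.5 months of age, DBA/2J eyes were labelled severe (10 ONH and 10 retina arrays), moderate (9 ONH and 8 retina arrays) or no or early glaucoma, the last in 2 sets whose difference the labels do not give (10 and 11 ONH arrays, 10 and 10 retina arrays). DBA/2J eyes before glaucoma were taken at 4.5 months (10 ONH arrays). The control was D2-Gpnmb+ (on some arrays labelled DBA/2J-Gpnmb+), the same strain with a functional Gpnmb allele and without glaucoma, at 10.5 months (10 arrays of each tissue). D2-Gpnmb+ therefore differed from every DBA/2J group in this allele as well as in disease, while stages at 10.5 months were compared within DBA/2J. All mice were labelled female.

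Kinesins move vesicles, mitochondria and cytoskeletal cargo outward along axonal microtubules, and cytoplasmic dynein moves cargo back toward the cell body. In the eye, ganglion cells carry the longest axons, and disturbed transport at the ONH is a well known feature of glaucoma in DBA/2J mice and in other models. Motor messenger RNA is made mainly in cell bodies, but the ONH sample was a punch that, per the labels, also held some central retina, choroid and sclera. In such bulk samples, fewer cells of a type and less RNA per cell cannot be told apart.

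The 108 arrays came from 60 eyes, and the number in each description, taken as the mouse, gave 50 mice. Values are log2 signals normalized by the authors. Array medians were 4.88 to 5.23 in the ONH and 5.02 to 5.16 in the retina. In the ONH 5 arrays, and in the retina 2, lay further from the median profile of their group than the tissue mean plus 2 SD. Among these were severe replicates 3 and 6 in the ONH and moderate replicate 2 in the retina. In severe ONH replicates 3 and 6, amacrine and horizontal cell markers averaged 4.96 and 4.37, and bipolar markers 6.42 and 5.62. On the other severe ONH arrays these markers averaged 6.64 to 7.41 and 7.61 to 8.4. Severe replicates 4 and 5, both eyes of the same mouse, had Xist signals of 3.28 to 4.81 in the 2 tissues, against at least 9.81 on every other array. The 2 sets with no or early glaucoma did not differ at an adjusted p under 0.05 in any gene of either tissue (limma, 0% of genes), and they were compared with other groups as an equal-weight mean. In D2-Gpnmb+ eyes, astrocyte markers averaged 9.85 to 10.39 in the ONH and 7.77 to 8.27 in the retina, and photoreceptor markers averaged 7.62 to 9.92 in the ONH and 11.07 to 11.17 in the retina.

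In the ONH, 7 of the 10 motors were lower in severe DBA/2J eyes than in D2-Gpnmb+ eyes and none was higher, where 13.5% of all 12100 genes tested were lower. The median difference of the 10 motors was -1.08 on the log2 scale, and that of all genes was 0.003. Kif5a, a neuronal kinesin-1 heavy chain, fell most, by 7.8-fold. The other kinesin-1 subunits Kif5b, Kif5c and Klc1, the vesicle motor Kif1a, the dynein subunit Dync1i1 and the kinesin-2 subunit Kif3a also fell. Kif1b, Kif3b and Kif3c did not pass the test.

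Kif5a, whose gene lies on chromosome 10 (GRCm38.p6 127225695 to 127266348), carries neurofilaments and other slow cargo in axons. Its ONH log2 signal was 8.74 at the lowest, 9.49 at the median and 11.08 at the highest in severe eyes, against 12.1, 12.58 and 12.76 in D2-Gpnmb+ eyes. All 10 severe arrays lay below every control array, every array with no or early glaucoma and every moderate array. The severe array nearest to the other groups was replicate 9, at 11.08, and the next severe array was at 9.87. The difference from control was -2.96 ± 0.143 (SE, adjusted p = 1.49e-24), and that from moderate eyes was -2.44 ± 0.144 (adjusted p = 2.93e-20), a 5.44-fold lower level.

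Kif5c, the other neuron-enriched kinesin-1 heavy chain, was separated from the control and the no or early arrays as well, with a smaller size. Its signal ran over 8.93, 9.51 and 9.66 (lowest, median, highest) in severe ONHs, against 10.46, 10.76 and 10.94 in D2-Gpnmb+ ONHs. No severe array reached the lowest control array or the lowest array with no or early glaucoma (10.26), while moderate arrays, at 9.62 to 10.57, overlapped the severe ones. Kif5c was 2.45-fold lower, a difference of -1.29 ± 0.0974 (adjusted p = 2.79e-16). Kif5b, the kinesin-1 heavy chain found in most cell types, had 9.45, 9.81 and 10.19 in severe ONHs, against 10.58, 10.94 and 11.42 in D2-Gpnmb+ ONHs. These groups did not overlap either, and Kif5b was 2.22-fold lower, by -1.15 ± 0.12 (adjusted p = 3.01e-11).

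Klc1 encodes a light chain through which kinesin-1 holds much of its cargo. Its signal was 5.87, 7.6 and 8.13 (lowest, median, highest) in severe ONHs, against 8.01, 8.31 and 8.66 in D2-Gpnmb+ ONHs. Here the groups overlapped and the severe spread was wide, with an SD of 0.789 against 0.246 in controls. The difference was -1.02 ± 0.188 (adjusted p = 2.9e-05), and it was -0.67 (adjusted p = 0.000217) without the arrays that lay far from their group. Kif5c and Klc1 were both lower in severe ONHs, and Kif1b is given beside them as a motor that did not pass the test there. Their sequences of 250 bases before a start site of the RefSeq promoter table, on GRCm38.p6, are printed in lower case, with the motif matches in capitals. They lie at chr2:49619036-49619285 on the plus strand (Kif5c), chr12:111758618-111758867 on the plus strand (Klc1) and chr4:149307734-149307983 on the minus strand (Kif1b). Gene spans can begin elsewhere: that of Klc1 starts at 111758435, so its window lies inside the span, and that of Kif1b ends at 149307773, inside its window.
Kif5c: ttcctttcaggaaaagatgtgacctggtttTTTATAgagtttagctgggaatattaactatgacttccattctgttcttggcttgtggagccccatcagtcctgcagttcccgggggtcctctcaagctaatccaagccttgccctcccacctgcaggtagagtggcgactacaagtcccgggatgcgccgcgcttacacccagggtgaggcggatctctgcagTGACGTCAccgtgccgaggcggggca
Klc1: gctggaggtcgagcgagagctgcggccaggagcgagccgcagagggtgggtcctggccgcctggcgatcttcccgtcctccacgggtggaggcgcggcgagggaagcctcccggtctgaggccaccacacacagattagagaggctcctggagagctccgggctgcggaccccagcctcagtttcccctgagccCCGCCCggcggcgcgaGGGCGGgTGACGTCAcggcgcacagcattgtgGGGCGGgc
Kif1b: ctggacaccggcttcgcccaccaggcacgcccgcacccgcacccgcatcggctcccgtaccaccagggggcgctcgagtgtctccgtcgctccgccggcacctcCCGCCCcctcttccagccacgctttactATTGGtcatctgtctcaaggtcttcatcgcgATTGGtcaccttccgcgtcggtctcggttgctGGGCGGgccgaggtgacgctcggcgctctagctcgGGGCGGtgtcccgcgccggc
The capitals mark, on either strand, the GC box GGGCGG, the CCAAT box CCAAT, the TATA box TATAAA and the cyclic AMP response element TGACGTCA. The E-box CANNTG was also searched and is not capitalised. TGACGTCA occurred in the Kif5c and Klc1 windows and in none of the windows of the other 6 motors that had an entry. Among those without it, Kif1a, Kif3a and Dync1i1 were also lower in severe than in D2-Gpnmb+ ONHs. Of 32841 such windows 1.5% held it, and a link between the motif and the levels was not tested. The Kif5c window also held TATAAA, which was in 12.4% of windows. GGGCGG occurred 3 times each in the printed Klc1 and Kif1b windows, 4 times in the window of another Kif1b start site, and was in 32.7% of windows, while CCAAT occurred 2 times in Kif1b and was in 33.9% of windows. In Kif3a the CCAAT and GC box matches overlapped each other, and the E-box was in 66.2% of all windows.

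Kif1a and Kif1b are kinesin-3 motors, Kif1a for precursors of synaptic vesicles and Kif1b, by isoform, for mitochondria or vesicle precursors. Kif1a had 4.55, 5.23 and 5.67 (lowest, median, highest) in severe ONHs, against 6.12, 6.52 and 6.8 in D2-Gpnmb+ ONHs. The groups did not overlap, and Kif1a was 2.48-fold lower, by -1.31 ± 0.167 (adjusted p = 1.06e-08). Its severe arrays lay around the filter level of log2 5, and ONH array medians were 4.88 to 5.23, so this fold rests on low signals. Kif1a, Kif5a, Kif5b and Kif5c were the 4 of 10 motors whose severe and control arrays did not overlap, the severe ones lower. Of all genes 2.02% did so. Kif1b had 11.16, 11.63 and 12.2 in severe ONHs, against 11.51, 12 and 12.19 in D2-Gpnmb+ ONHs, and these overlapped, with a difference of -0.24 ± 0.131 (adjusted p = 0.179).

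The kinesin-2 subunits, known for transport in cilia, in photoreceptors and in axons, gave 1 call on the probe sets used in the ONH. Kif3a was 1.29-fold lower in severe than in D2-Gpnmb+ ONHs (-0.37 ± 0.0924, adjusted p = 0.00159), with arrays at 7.92 to 8.51 and 8.2 to 8.88 that overlapped. Its partner Kif3b, at 6.58 to 7.37 in severe and 6.6 to 7.34 in D2-Gpnmb+ ONHs, differed by 0.14 ± 0.104 (adjusted p = 0.336). Kif3c, the neuronal alternative to Kif3b, lay at 6.47 to 7.93 and at 6.87 to 8.18 in the same groups, with a difference of -0.23 ± 0.239 (adjusted p = 0.531), while its other probe set, 1434947_at, was lower by -0.9 ± 0.137. The dynein subunit Dync1i1, which links the motor to dynactin in neurons, had 4.26, 5.91 and 7.27 in severe ONHs, against 5.82, 7.0 and 8.19 in D2-Gpnmb+ ONHs. These overlapped widely, and the difference of -1.25 ± 0.326 passed the test (adjusted p = 0.00269).

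**Figure D1:**
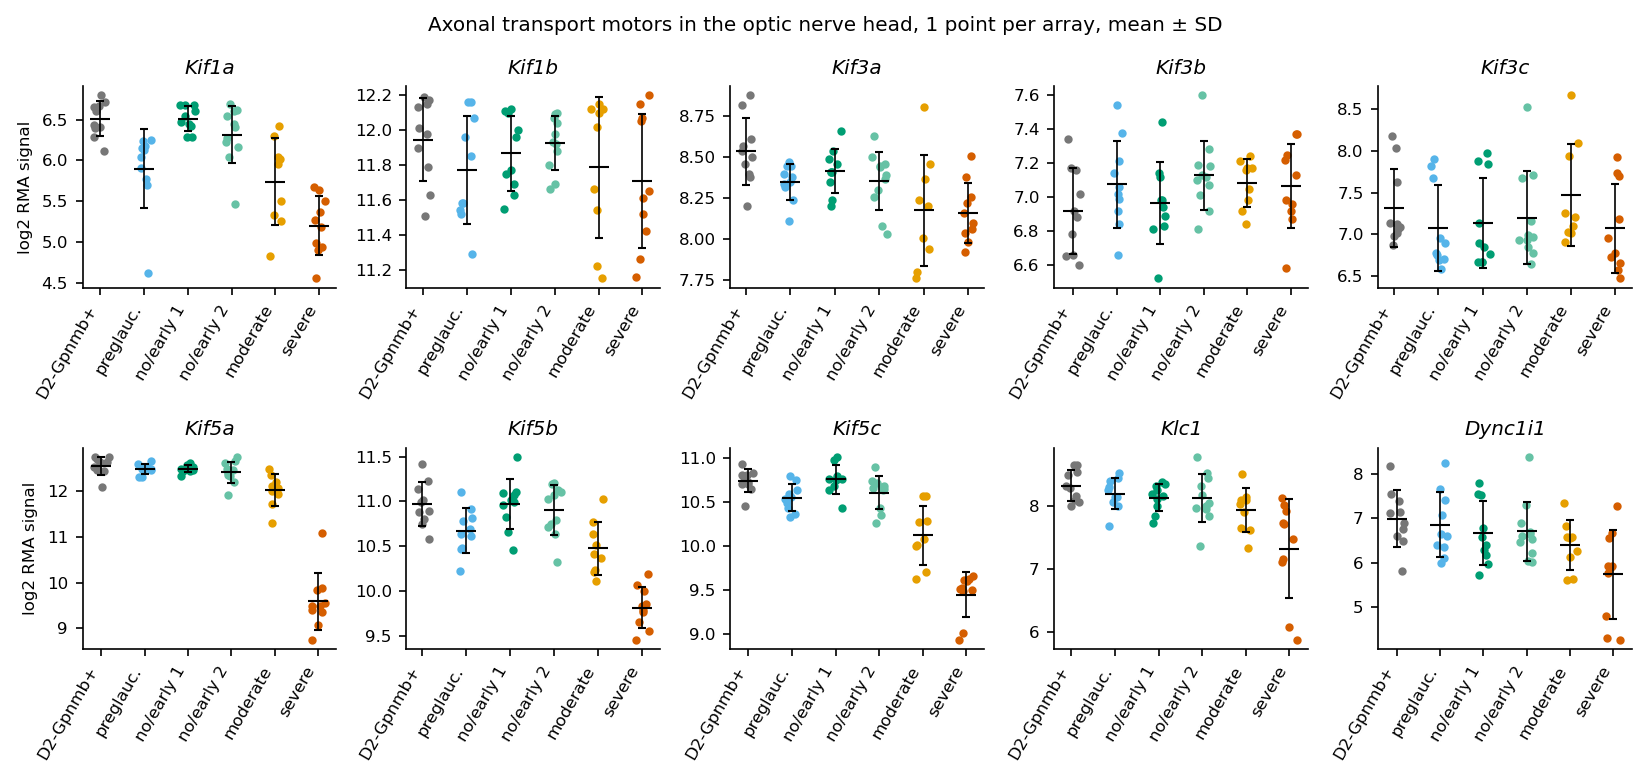
Log2 RMA signal of each motor in the ONH, with 1 point per array and the mean ± SD of each group (control and 5 DBA/2J groups on the horizontal axis, each panel with its own vertical scale). Kif5a stayed between 11.92 and 12.76 in control, preglaucoma and no or early eyes, lay between 11.31 and 12.5 in moderate eyes and between 8.74 and 11.08 in severe eyes.

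Along the stages, the calls of lower motors against control began, apart from Kif1a, with moderate glaucoma. No motor passed the test between no or early and D2-Gpnmb+ ONHs, where 2.86% of all genes did in either direction. In moderate against D2-Gpnmb+ ONHs 5 motors were lower and none higher, where 11.9% of all genes were lower. The median motor difference was -0.44, and that of all genes was 0.009. These were Kif1a (-0.77 ± 0.17, adjusted p = 0.000654), Kif5c (-0.61 ± 0.0996, adjusted p = 7.54e-06), Kif5a (-0.52 ± 0.146, adjusted p = 0.00704), Kif5b (-0.49 ± 0.122, adjusted p = 0.00243) and Kif3a (-0.36 ± 0.0945, adjusted p = 0.00425). Among these, Kif5a in moderate ONHs overlapped the control range, at 11.31 to 12.5 against 12.1 to 12.76.

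Within DBA/2J at 10.5 months, where the Gpnmb genotype was the same, the order was similar. Moderate against no or early ONHs gave 4 lower motors (4.62% of all genes were lower), namely Kif1a, Kif5a, Kif5b and Kif5c. Severe against no or early ONHs gave 7 lower motors (9.88% of all genes were lower), with Kif5a at -2.87 ± 0.121 (adjusted p = 2.27e-27). In severe against moderate ONHs 4 motors were lower (2.46% of all genes were lower): Kif5a, Kif5b by -0.66 ± 0.12 (adjusted p = 0.000179), Kif5c by -0.68 ± 0.0981 (adjusted p = 1.52e-06) and Klc1 by -0.63 ± 0.189 (adjusted p = 0.0436). Without the arrays that lay far from their group, Klc1 in severe against moderate ONHs was at -0.28 (adjusted p = 0.278), Kif1a was at -0.53 (adjusted p = 0.00759), and in severe against no or early ONHs Dync1i1 was at -0.49 (adjusted p = 0.201) and Kif3a at -0.19 (adjusted p = 0.115). With marker levels as covariates Kif3a in severe against no or early ONHs was at -0.18 for photoreceptor and pigment epithelium (adjusted p = 0.168) and at -0.09 for amacrine and bipolar markers (adjusted p = 0.483).

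Mean Kif5a levels in the ONH were 12.56 ± 0.197 in D2-Gpnmb+, 12.49 ± 0.109 before glaucoma, 12.5 ± 0.083 and 12.42 ± 0.231 in the 2 no or early sets, 12.03 ± 0.35 in moderate and 9.59 ± 0.622 in severe eyes (SD). Between severe and moderate eyes, and between moderate eyes and the nearest no or early set, the gap exceeded the larger SD, and the other neighbours lay within it. Kif5c had gaps beyond the larger SD between severe and moderate (0.68) and between moderate and preglaucoma (0.42) ONHs. For Kif1a and Kif5b only the gap between severe and moderate ONHs did so, at 0.54 and 0.67. For Kif1a that gap barely exceeded the SD of 0.536 in moderate ONHs. With all arrays, Kif1a did not pass the test between these stages. Klc1, Dync1i1, Kif1b, Kif3a, Kif3b and Kif3c had no gap between neighbouring groups beyond the larger SD.

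On the probe sets used, Kif1a alone among the motors was called between preglaucoma and either D2-Gpnmb+ or no or early ONHs. In preglaucoma ONHs at 4.5 months it had 4.62, 6.09 and 6.25 (lowest, median, highest), against 6.12, 6.52 and 6.8 in D2-Gpnmb+ ONHs at 10.5 months. The difference was -0.61 ± 0.168 (adjusted p = 0.0186), with 1 of 10 motors lower and 3.87% of all genes lower. No or early eyes at 10.5 months were higher than preglaucoma eyes by 0.52 ± 0.143 (adjusted p = 0.0092). This was again 1 of 10 motors, a share near the 9.83% of all genes that were higher. The preglaucoma array at 4.62 was 1 of the 5 ONH arrays far from their group. With amacrine and bipolar marker levels as covariates the Kif1a difference from control was -0.46 (adjusted p = 0.0531). With every probe set fitted, 1 of 3 for Kif5c was lower than in control (8.32% of 21140 called in either direction). Against preglaucoma, 1 of 3 for Kif5c and 2 of 3 for Klc1 were higher in no or early ONHs (18.1% called in either direction). The preglaucoma mice had number ranges that no other group held. Age therefore cannot be told apart from a difference between sets of mice.

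A pair of mice gave a severe and a moderate eye each. In their ONHs Kif5a was 9.35 in the severe eye against 11.31 in the moderate eye of the same mouse, and 8.74 against 11.72 in the other mouse. Kif5c was lower in the severe eye of both mice as well, by -0.38 and -1.08 on the log2 scale. Klc1 differed by -0.1 in the first of these mice and by -2.24 in the pair with severe replicate 3, an array far from its group. In their retinas the 2 mice went opposite ways, with Kif5a at 9.68 in the severe eye against 9.22 in the moderate eye of the first mouse, and at 9.37 against 9.8 in the other. Kif5c differed there by 0.23 and -0.13 in the same order of mice, and the moderate retina of the first mouse is replicate 2, an array far from its group.

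In the retina the motors changed less. Severe against D2-Gpnmb+ retinas gave 5 lower motors and none higher, where 18.2% of all 11322 genes tested were lower. The median motor difference was -0.17, with -0.022 for all genes. Kif5a, Kif3c, Dync1i1, Kif5c and Kif1b fell, while Kif5b, Kif3a, Kif3b, Kif1a and Klc1 did not pass.

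Retinal Kif5a was 9.18, 9.46 and 9.68 (lowest, median, highest) in severe eyes, against 9.93, 10.17 and 10.37 in D2-Gpnmb+ eyes. The groups did not overlap, and the level was 1.6-fold lower (-0.68 ± 0.0791, adjusted p = 3.3e-09). Retinal Kif3c had 7.37, 7.62 and 7.82 in severe eyes, against 8.0, 8.12 and 8.29 in D2-Gpnmb+ eyes, also without overlap, and was 1.42-fold lower (-0.5 ± 0.0534, adjusted p = 2.48e-10). These were the 2 motors without overlap, both lower in severe eyes, where 4.57% of all genes were so.

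Dync1i1 had 7.12, 7.24 and 7.57 in severe retinas, against 7.43, 7.67 and 7.96 in D2-Gpnmb+ retinas, and was lower by -0.4 ± 0.114 (adjusted p = 0.00609). Kif5c was lower by -0.19 ± 0.0505 (adjusted p = 0.00265) and Kif1b by -0.15 ± 0.0283 (adjusted p = 3.27e-05), both with overlapping arrays. For Kif1b this size was that of the difference of -0.14 between the 2 no or early sets, at 12.26 to 12.37 in the second and 12.38 to 12.52 in the first (adjusted p = 0.0786). Retinal Kif5b lay at 9.92 to 10.4 in severe and 9.98 to 10.2 in D2-Gpnmb+ eyes, a difference of 0.1 ± 0.0593 (adjusted p = 0.187).

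**Figure D2:**
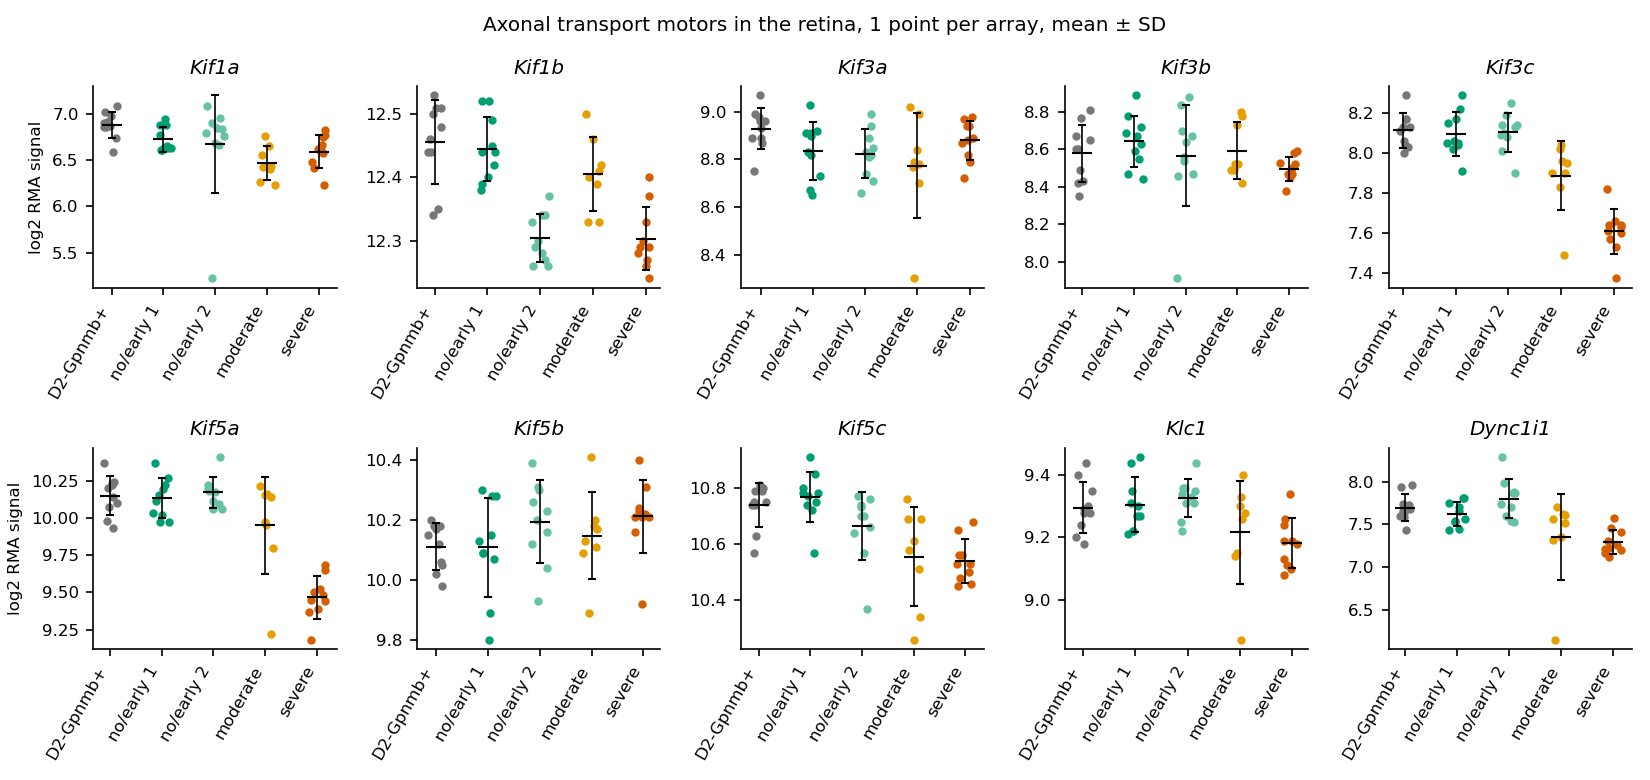
Log2 RMA signal of each motor in the retina, with 1 point per array and the mean ± SD of each group (preglaucoma retinas were not analysed here, and each panel has its own vertical scale). The Kif5a and Kif3c points of severe retinas, at 9.18 to 9.68 and 7.37 to 7.82, lie below all control points, and the lowest moderate point in both panels is replicate 2.

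Earlier stages gave fewer calls in the retina. No or early against D2-Gpnmb+ retinas gave no motor call, with 0.0442% of all genes called in either direction. In moderate against D2-Gpnmb+ retinas 4 motors were lower (8.4% of all genes were lower): Kif1a by -0.42 ± 0.13 (adjusted p = 0.0219), Kif3c by -0.22 ± 0.0565 (adjusted p = 0.00421), Kif5c by -0.18 ± 0.0535 (adjusted p = 0.014) and Dync1i1 by -0.34 ± 0.12 (adjusted p = 0.0456). Kif5a was not called there (-0.2 ± 0.0837, adjusted p = 0.102). Within DBA/2J, severe against no or early retinas gave 6 lower motors (24.2% of all genes were lower), with Kif5a at -0.68 ± 0.0682 and Kif3c at -0.49 ± 0.046. Severe against moderate retinas gave 3 lower motors, Kif5a, Kif3c and Kif1b, a share near the 21.5% of all genes that were lower, and moderate against no or early retinas gave Kif3c, Kif5c and Dync1i1 (7.51% of all genes were lower).

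Moderate replicate 2, a retina array far from its group, was lowest of its group for Dync1i1 (6.15), Kif5a (9.22), Kif3a (8.3) and Kif3c (7.49). Its amacrine and bipolar marker means were 7.46 and 8.51, also below the other moderate arrays. Without it and the other such array, Dync1i1 in moderate against D2-Gpnmb+ retinas was at -0.16 (adjusted p = 0.169). With photoreceptor and pigment epithelium marker levels as covariates none of the 4 moderate calls remained, at -0.29 for Kif1a, -0.17 for Kif3c, -0.12 for Kif5c and -0.17 for Dync1i1 (adjusted p of 0.257, 0.0986, 0.259 and 0.547 in that order).

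The size of the severe effect differed between the tissues of the same eyes. In the fit of ONH minus retina per eye, the severe effect against D2-Gpnmb+ was more negative in the ONH for 6 motors and for none the reverse, and 12.3% of all 10727 genes were more negative. Kif5a had the largest difference between tissues among the motors, -2.29 ± 0.139 (adjusted p = 3.07e-17). Kif5c followed at -1.1 ± 0.12 (adjusted p = 2.8e-09), Kif1a at -1.02 ± 0.207 (adjusted p = 0.000337) and Klc1 at -0.91 ± 0.204 (adjusted p = 0.00111). Kif5b differed by -0.62 ± 0.11 (adjusted p = 5.93e-05), read on a probe set other than the one used for the ONH alone, and Kif3a by -0.33 ± 0.109 (adjusted p = 0.026). Dync1i1 (-0.86 ± 0.335, adjusted p = 0.0619) and Kif3c (-0.4 ± 0.152, adjusted p = 0.053) did not pass. Without the arrays far from their group, Kif3b went the other way, at 0.28 (adjusted p = 0.0408).

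Against no or early eyes the same 6 motors were called (9.58% of all genes more negative), with Kif5a at -2.17 ± 0.119. Without the arrays far from their group, Klc1 was at -0.33 (adjusted p = 0.064) and Kif3a at -0.25 (adjusted p = 0.0827) in that comparison. At the moderate stage the tissues differed for Kif5c alone among the motors (-0.49 ± 0.127, adjusted p = 0.012, with 4.59% of all genes more negative). In control eyes, Kif5a was 2.41 ± 0.0996 higher in the ONH than in the retina, and Kif5b 0.35 ± 0.0783 higher, while 7 motors were lower in the ONH, of which Kif3b was the furthest (-1.66 ± 0.0776). There 24.7% of all genes were higher and 57.9% lower in the ONH, so these counts lay near the background, and the median gene was lower in the ONH by -0.311, and whether the authors normalized both tissues together is not given in the sources used here.

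**Figure D3:**
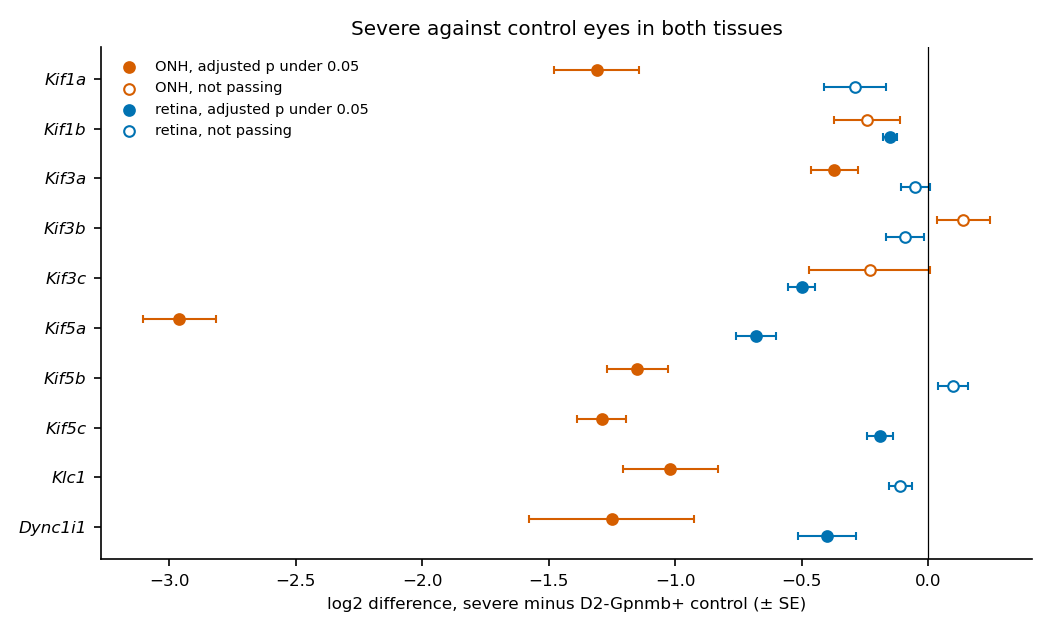
Log2 difference of each motor between severe and D2-Gpnmb+ eyes (horizontal axis, ± SE), with the ONH above the retina in each row and filled points for an adjusted p under 0.05. Kif5a lies at -2.96 in the ONH and -0.68 in the retina, and Kif5b at -1.15 and 0.1. Kif5b and Kif3c were read on different probe sets in the ONH and the retina, and on 1 probe set for both tissues the severe effect on Kif5b differed by -0.62.

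Other probe sets of the same genes gave a check. In the ONH 32 of the 36 motor probe sets passed the filter. In a fit over all probe sets 18 of them were lower in severe than in D2-Gpnmb+ eyes and none was higher. Of all 21140 probe sets, 21.4% were called in either direction. Both probe sets of Kif5a fell (-2.96 and -2.17), as did both of Kif1a, all 3 of Kif5c and 5 of 6 of Kif5b. Of the 7 Kif1b probe sets only 1451762_a_at fell by 1.66 on the log2 scale, while the other 6 lay at -0.31 to 0.27. Klc1 had 1 of 3 called, with 1428881_at at 0.34 ± 0.154 (adjusted p = 0.113). Kif3a had 2 of 4 lower in severe against D2-Gpnmb+ ONHs. In moderate against D2-Gpnmb+ and in severe against no or early ONHs it had 1 of 4 lower.

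Kif3c was split by probe set in both tissues. Probe set 1434947_at was lower in severe than in D2-Gpnmb+ eyes by -0.9 ± 0.137 in the ONH and -0.5 ± 0.0539 in the retina. The other, 1448946_at, which had the higher mean in the ONH and so stood for the gene there, was at -0.23 ± 0.239 and -0.11 ± 0.0633. The tissue difference between called and not called for Kif3c therefore went with the probe set.

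In the retina 29 motor probe sets passed, of which 8 were lower and 3 higher in severe eyes. Of all 20264 probe sets, 31% were called in either direction, so the motor count lay near the background. The 3 higher ones were 2 of Kif5b and 1 of Kif5c. Kif5b probe set 1453524_at averaged 6.37 ± 0.275 in severe and 5.2 ± 0.256 in D2-Gpnmb+ retinas (SD, n = 10 each), a difference of 1.17 ± 0.103 (adjusted p = 9.92e-13), while the probe set of highest mean was at 0.1. In the ONH the same probe set was at 0.61 ± 0.315 (adjusted p = 0.168), against -0.52 to -1.15 for the other 5. Kif5c probe set 1422945_a_at was at 0.3 ± 0.116 in the retina (adjusted p = 0.0413), opposite to the one used. Kif1b probe sets 1451642_at and 1423995_at fell in the retina by 0.76 and 0.71 on the log2 scale. Which transcripts these probe sets read was not tested.

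**Figure D4:**
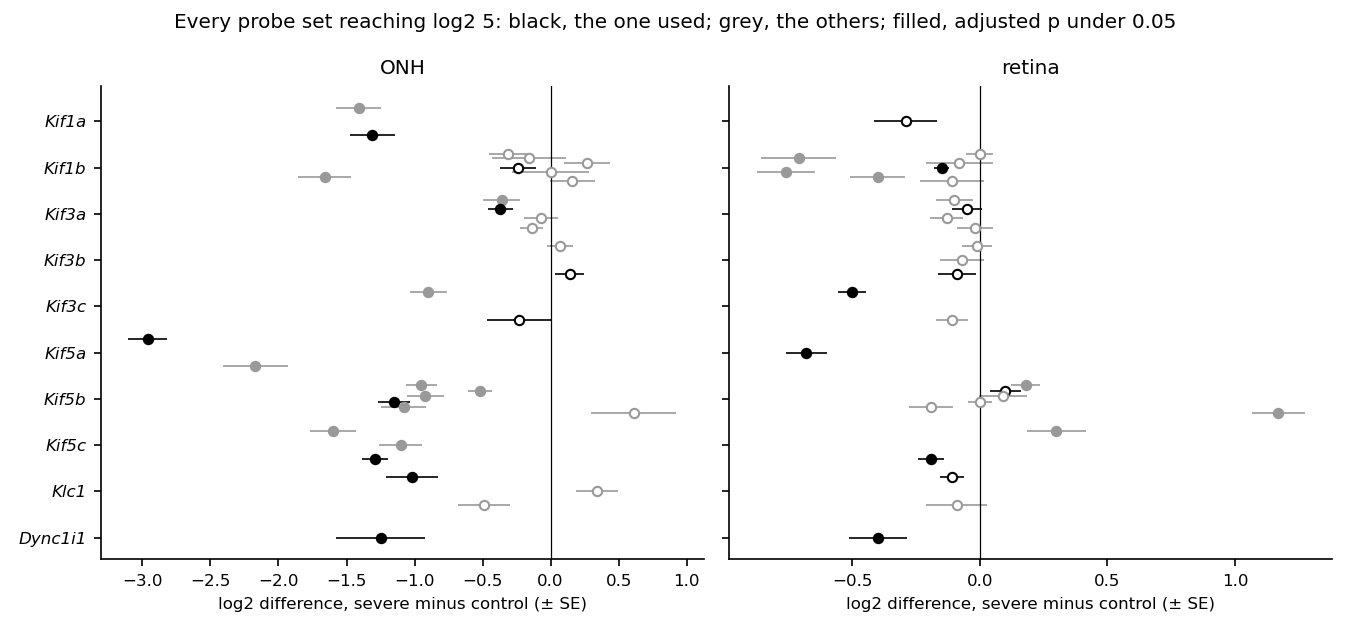
Log2 difference between severe and D2-Gpnmb+ eyes (horizontal axis, ± SE) of every motor probe set that passed the filter, in the ONH (left) and retina (right), with the probe set used in black, the others in grey, and filled points for an adjusted p under 0.05. The grey Kif1b point at -1.66 in the ONH and the grey Kif5b point at 1.17 in the retina stand apart from the other probe sets of their genes.

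Markers of ganglion cells moved with the motors. Their list of 13 genes (10 tested) had 9 lower in severe against D2-Gpnmb+ ONHs, with a median of -3.08, and 10 lower in the retina, with a median of -2.72. The mean log2 signal of the list was 5 to 6.52 in severe ONHs against 7.62 to 8.4 in D2-Gpnmb+ ONHs, and 5.4 to 6.55 against 7.96 to 8.12 in the same groups of retina. Markers of other neurons in the ONH punch also fell, 7 of 8 amacrine and horizontal markers (median -1.36) and 5 of 6 bipolar markers (median -0.86), while none of 11 photoreceptor markers was called (median -0.38). In the retina 1 of 8 amacrine and horizontal markers and none of 6 bipolar markers was lower. Of all genes, 13.5% were lower in severe against D2-Gpnmb+ ONHs and 18.2% in the same groups of retina. The retinal amacrine and bipolar counts therefore did not exceed the background.

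With amacrine and bipolar marker levels as covariates, Kif5a in severe against D2-Gpnmb+ ONHs was at -2.7 (adjusted p = 6.42e-20), Kif5b at -1.2, Kif5c at -1.1 and Kif1a at -0.99, each past the threshold. Klc1 was at -0.32 (adjusted p = 0.0266), and Dync1i1 at -0.28 (adjusted p = 0.61) and Kif3a at -0.19 (adjusted p = 0.223) no longer passed. Pigment epithelium markers were lower too (4 of 5), and with photoreceptor and pigment epithelium marker levels as covariates 7 motors were called, with Kif5a at -2.85, Kif5c at -1.27, Kif1a at -1.15 and Klc1 at -1.05. The part of ganglion cell markers in the motor differences was not tested by such a fit. Oligodendrocyte (3 of 6), Müller glia (3 of 4), melanocyte (5 of 5) and astrocyte markers (2 of 6) were lower too. These counts are of severe against D2-Gpnmb+ ONHs, where 13.5% of all genes were lower. Fibroblast and sclera (3 of 5) and microglia markers (2 of 6) were higher there, and the share of all genes that were higher is not given here. The part of these lists in the motor differences was not tested.

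Within a stage, Kif5a followed the ganglion cell list most closely in severe ONHs. Over 9 mice, Pearson's r was 0.934 and Spearman's rho 0.867 (two-sided exact permutation p = 0.000601 and 0.00451). Adjusted over the 60 relations computed (10 motors in 3 stages of each tissue), these were 0.036 and 0.0913. Without the 2 mice farthest from the median of the list, r was 0.673. Kif5c in moderate ONHs had r 0.88 and rho 0.883 over 9 mice (adjusted exact permutation p = 0.0376 and 0.0913), and 0.697 without the 2 farthest. Kif3c in no or early retinas had r 0.676 and rho 0.535 over 19 mice (adjusted permutation p = 0.0376 and 0.19), and 0.472 without the 2 farthest. No other relation passed by r, and none passed by rho. In moderate ONHs Kif5c also had r 0.729 with the amacrine and horizontal list, and the 2 lists had r 0.718. In severe ONHs the amacrine and horizontal list gave r 0.94 for Klc1, 0.816 for Dync1i1, 0.809 for Kif1a, 0.473 for Kif5a and -0.233 for Kif5b. The relations with the amacrine and horizontal list were not tested.

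**Figure D5:**
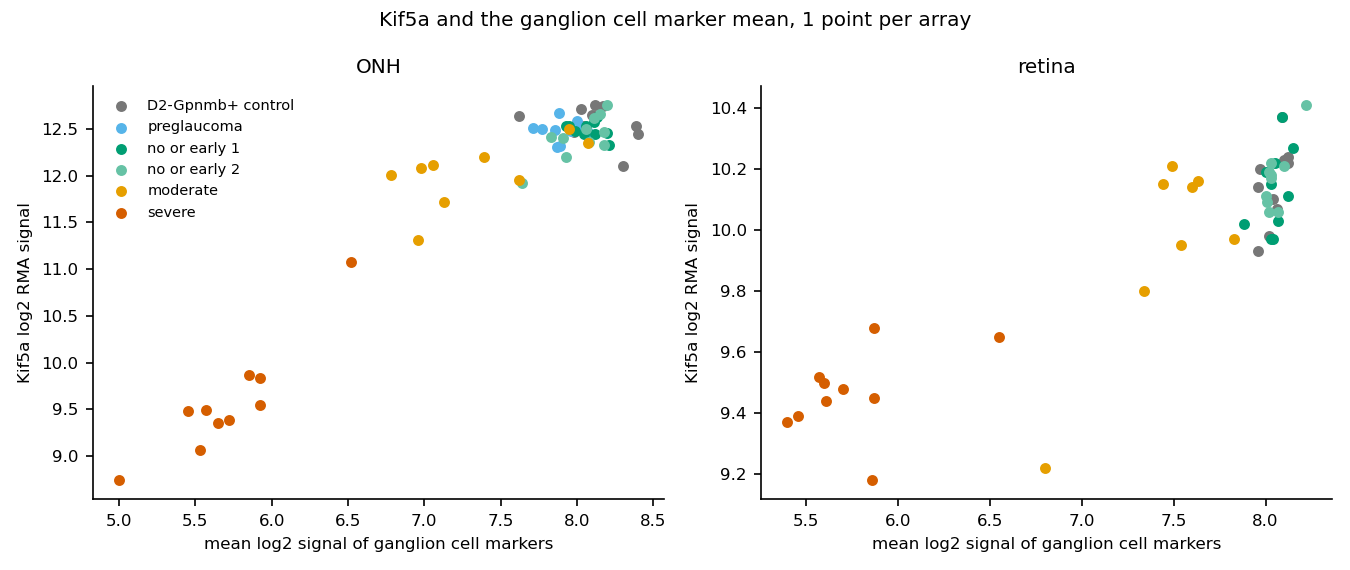
Kif5a log2 signal (vertical) against the mean log2 signal of the ganglion cell markers (horizontal) for each array of the ONH (left) and retina (right), coloured by group. Severe ONH arrays lie at list means of 5 to 6.52 and Kif5a of 8.74 to 11.08, and moderate arrays at 6.78 to 8.07 and 11.31 to 12.5.

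Over all 60 ONH arrays, the gene whose pattern was most like Kif5a was Unc13c, a synaptic vesicle priming factor, with r 0.987. Sptbn4, a spectrin of the axon initial segment, followed at 0.972, and the neurofilament gene Nefl at 0.967. Unc13c was also most like Kif5c, at 0.934, and Panx2 most like Kif1a, at 0.915. Over the 48 retina arrays, Zwint and Rab6b were most like Kif5a, both at 0.947, and Sult4a1 most like Kif3c, at 0.946. These arrays share stage differences, so the values describe the pattern across stages. Once group means were removed, Kif5a and Kif5c correlated at 0.502 in the ONH and 0.221 in the retina, and Kif3c and Kif5a at 0.257 and 0.761 in the same order of tissues.

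Of other transport kinesins 10 of 13 were tested, and Kif21a alone was lower in severe than in D2-Gpnmb+ ONHs (-1.25 ± 0.121, adjusted p = 2.93e-12). Of kinesin light chains, accessory subunits and adaptors, 7 of 19 tested were lower and none higher, where 13.5% of all genes were lower. They included the liprin scaffolds Ppfia3 (-2.28 ± 0.188) and Ppfia2 (-1.61 ± 0.202), the kinesin-1 adaptors Mapk8ip2 (-1.75 ± 0.252) and Mapk8ip1 (-0.86 ± 0.129), and the mitochondrial adaptor Trak2 (-0.6 ± 0.106). Kifap3, the partner of Kif3a and Kif3b, was at -0.11 ± 0.0655 (adjusted p = 0.214).

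Of 8 other dynein subunits Dynll2 was lower (-0.32 ± 0.044) and Dynll1 higher (0.2 ± 0.0715) in severe ONHs. Of 14 dynactin and dynein regulator genes only Pafah1b1 was lower (-0.18 ± 0.045). With 13.5% of all genes lower there, these counts of lower genes and that of the other transport kinesins did not exceed the background. Genes of axonal microtubules had 8 of 17 lower, among them the neuronal tubulin Tubb3 (-2.22 ± 0.206) and the microtubule stabiliser Mapt (-1.48 ± 0.171). In the retina the same lists had 1 lower and 1 higher of 10 (other kinesins), 4 and 2 of 19 (adaptors) and 2 and none of 8 (dynein). The dynactin list had 4 and 1 of 14, and the microtubule list 11 and 2 of 17. There 18.2% of all genes were lower, so the kinesin, adaptor and dynein counts lay near the background.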

How the data were processed

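Log2 signals of 108 Affymetrix Mouse Genome 430 2.0 arrays were used as deposited. Per the submitters' processing notes, the authors used GCOS and RMA in the affy package, without versions, and the deposited log2 values ran from 1.81 to 14.31 over 45101 probe sets. Samples were grouped by the labels, and p-values measure the spread between eyes. Probe sets of exactly 1 gene were kept (34958), of which 34754 were matched by gene number. Among the probe sets of a gene, the one of highest mean in the tissue was used, or over both tissues for the fit of ONH minus retina per eye. Genes reaching log2 5 on at least 8 arrays were tested: 12100 in the ONH, 11322 in the retina and 10727 between tissues.

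Fits used limma 3.58.1 in R 4.3.3 (lmFit, eBayes, all groups of a tissue together, mouse as a random block, within-mouse correlation 0.0774, 0.0366 and 0.0992). All tests were two-sided, with Benjamini-Hochberg adjustment over all genes of a comparison and a threshold of 0.05. Motors named in the text were the 10 members, and genes outside them were named from the lists by the largest severe change among those past the threshold, at most 4 a list, and as the 3 genes of highest correlation with a motor; Trak2 and Kifap3 were chosen after their values were seen. Members and lists were chosen with earlier results of these data known. Promoter windows were matched for 8 of 10 motors. The fits were tested on simulated data. The number of arrays limits the precision, since the files hold no counts. The alternatives tried were other filters, normalization, probe sets, covariates, blocks and sample subsets. 2 further deposited tables held subsets of the same values and were not used.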

Additional observations from a re-analysis of the deposited data

Results flagged for a closer look

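A test for an array far from the rest of its group was made in 100 groups of 8 to 10 arrays, and chance flags about 1 in 20 such groups. The second no or early ONH set, with 11 arrays, was left out of this test. The test picked 12. In the ONH these were Kif1a at 4.62 in preglaucoma replicate 5 (next 5.7), Kif5a at 11.08 in severe replicate 9 (next 9.87) and Kif5a at 12.1 in control replicate 1 (next 12.45). In the retina, replicate 3 of the second no or early set was lowest for Kif1a (5.22), Kif3b (7.91) and Kif5c (10.37), and replicate 9 of that set was highest for Kif5a (10.41). Moderate replicate 2 was lowest for Kif3a (8.3), Kif3c (7.49), Kif5a (9.22) and Dync1i1 (6.15), and severe replicate 1 for Kif5b (9.92). Of these 12, 8 fell on arrays far from the median profile of their group over all genes.

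Effects that differed between the tissues of the same eyes, by a test of the difference (limma, ONH minus retina), were found for Kif5c at the moderate stage (-0.49). At the severe stage against control they were Kif5a (-2.29), Kif5c (-1.1), Kif1a (-1.02), Klc1 (-0.91), Kif5b (-0.62) and Kif3a (-0.33). Against no or early eyes they were Kif5a (-2.17), Kif1a (-1.1), Kif5c (-1.05), Klc1 (-0.66), Kif5b (-0.5) and Kif3a (-0.28).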

How the results depend on the processing

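Counts of motors called kept their direction, lower, in every alternative for the severe ONH, and depended most on samples and probe sets. With the mean of all probe sets, calls were 3, all lower, for preglaucoma against control ONHs. They were 4, all higher, for no or early against preglaucoma ONHs. Over all genes that mean gave 1381 and 2337 calls of 10976 in these comparisons. In the retina it gave 2 motor calls for moderate against control and 1 for moderate against no or early eyes. For severe against moderate retinas it gave 5, with 4 lower and 1 higher. Over all genes the same retina comparisons had 1347, 1270 and 3952 calls of 10244, in that order. The moderate difference between tissues had 2 motor calls, with 608 of 9477 over all genes. Also with that mean, signs turned for Klc1 in no or early against preglaucoma ONHs (0.41), for Kif5c in the retina (0.02 moderate and 0.07 severe against control, 0.01 severe against no or early) and in control eyes between tissues for Kif1a (0.31) and Klc1 (0.45). Single probe sets turned the sign for Kif5b (0.61) and Klc1 (0.34) in severe against control ONHs and for Kif5c (0.3) and Kif1b (0) in severe against control retinas. With amacrine and bipolar covariates the count for preglaucoma against control was 0, with 690 of 12100 genes called.

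Restricted to the range of mouse numbers that holds all controls, counts were 0 for moderate against control and against no or early eyes in both tissues, 4 for severe against no or early ONHs, and 3 for severe against no or early and 1 for severe against moderate retinas, and Kif5c in moderate against no or early retinas was at 0.02; this subset has 2 moderate arrays in each tissue. Calls over all genes fell there too. Of 11601 ONH genes, 194 were called for moderate against control, 0 for moderate and 227 for severe against no or early eyes. Of 10969 retina genes, 161 and 122 were called in the same moderate comparisons. Severe against no or early retinas had 2348, and severe against moderate retinas had 429. With the number range as a factor, counts were 3 for moderate against control ONHs and 4 (3 lower and 1 higher) for control eyes between tissues. Over all genes 2142 of 12100 and 6595 of 10727 were called there. The 2 no or early retina sets gave 1 call with this factor. They also gave 1 with array weights, further quantile normalization, and photoreceptor and pigment epithelium covariates. In these settings at most 4 of all genes were called between the sets. The photoreceptor and pigment epithelium covariates gave 0 for moderate against control and against no or early retinas. Over all genes these were 544 and 388 of 11322. Array weights gave 1 for no or early, 2 for moderate and 8 (7 lower and 1 higher) for severe against control retinas. Over all genes they gave 70, 1297 and 5471 calls of 11322 in the same 3 retina comparisons. For the moderate difference between tissues they gave 3, with 1122 of 10727 over all genes. Only the groups compared gave 1 for moderate against control and against no or early retinas, with 652 and 929 of 11322 genes called. Without a filter or with further quantile normalization, no or early against preglaucoma ONHs gave 2, both higher. Over all genes 5141 of 18194 and 1426 of 12110 were called in these settings, in either direction. That normalization gave 2 for the moderate difference between tissues, with 944 of 10715 over all genes. Without arrays far from their group, an alternative chosen after seeing the data, that difference gave 4, with 1456 of 10659 over all genes. Without the mouse of low Xist, also chosen after seeing the data, 7 motors were called in severe against control ONHs. Over all genes 3197 of 12092 were called there. The cause of these changes was not tested.

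Replicate numbers recur between groups, and arrays with the same number correlated at 0.097 on average in the ONH and -0.022 in the retina after group means were removed. With the replicate number as a block, 9 motors were called in severe and 6 in moderate against control ONHs, 5 in severe and 3 in moderate against control retinas. Over all genes the block gave 3529 and 3140 calls of 12100 in these ONH comparisons and 3523 and 1616 of 11322 in these retina comparisons.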

Other observations

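Kif3c and Dync1i1 varied together across ONH arrays within groups. After group means were removed, their deviations correlated at 0.75 over 60 arrays, while Kif3c correlated with Kif1a at -0.434 and with Kif1b at -0.427. These arrays share the dissection of the punch, whose content of retinal neurons differed between arrays. The part of that content in these correlations was not tested. Over mice, Kif3c had r -0.0884 with the amacrine and horizontal list in no or early, -0.478 in moderate and 0.217 in severe ONHs. Dync1i1 had 0.175, 0.258 and 0.816 in the same order. In the retina, where Kif3c was read by its other probe set, its deviations correlated with those of Dync1i1 at 0.652 and of Kif5a at 0.761 over 48 arrays.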
